A study of Mus musculus with 4 samples.

Results

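H2A.Z occupancy was compared between 1 WT and 1 Uhrf1hepKO mouse liver, through the peaks called in each ChIPseq library on chromosomes 1 to 19. The members are all 97065 peaks on these chromosomes, 50665 from the WT and 46400 from the Uhrf1hepKO liver. A peak that overlapped a peak of the other list by at least 1 bp was taken as shared, and any other peak as WT-only or Uhrf1hepKO-only. Both livers came from male C57Bl/6 mice of 8 to 12 weeks on a normal diet. The WT mouse was Uhrf1 fl/fl, and the Uhrf1hepKO mouse was Uhrf1 fl/fl with the Alb:Cre transgene, in which the albumin promoter drives Cre in hepatocytes. Whole liver was used, so cells in which Cre was never active would keep Uhrf1 in both livers, and which cells lost it was not measured here. Fewer cells with H2A.Z at a site and less H2A.Z per cell cannot be told apart. The series holds 4 libraries in all, the other 2 being ATACseq libraries, which map accessible DNA, from a WT and a Uhrf1hepKO liver. The sources do not say whether these came from the same animals as the H2A.Z libraries. With 1 library per genotype the spread between mice is unknown, so there is no test between genotypes. Shares are given with Wilson 95% intervals, which describe the counting error alone.

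H2A.Z is a variant of histone H2A that the SRCAP and p400 complexes exchange into nucleosomes. It is found mainly in the nucleosomes on either side of the transcription start site (TSS) and at enhancers, and it is depleted where DNA is methylated. UHRF1 binds hemimethylated CpGs after replication and brings the maintenance methyltransferase DNMT1 to them, so its loss from dividing cells leaves DNA under-methylated. The comparison asks where H2A.Z differed between a liver with and a liver without hepatocyte Uhrf1.

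The depth of the 2 libraries was read from the lists. MACS2 gives the fold of a peak as the reads at its summit plus 1 over the background plus 1. The folds rose in even steps in 94.1% of WT and 91.6% of Uhrf1hepKO peaks, which gave the reads at those summits, over a background of 3.103 reads per base in WT and 3.303 in Uhrf1hepKO. The shortest peak, which equals the fragment length in MACS2, was 95 bp in WT and 101 bp in Uhrf1hepKO. Background divided by this length was 1.001 times as high in Uhrf1hepKO as in WT, so the libraries had about the same depth. Reads at the summit had a median of 21 in WT and 23 in Uhrf1hepKO, so most sites rest on few reads. Peaks mark the presence of H2A.Z and not the expression of a gene. Of 28 measured hepatocyte products such as albumin and transthyretin, 24 had no H2A.Z summit within 1 kb of the TSS in either liver. None of the 10 measured Kupffer cell markers and none of the 8 lymphocyte markers had one. Of the cholangiocyte markers 4 of 8, and of the endothelial markers 1 of 10, had summits in both livers. A single summit was present at 1 of 8 stellate cell markers in WT and at none in Uhrf1hepKO, at Dcn, which encodes decorin, with 15 reads.

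A few of the peaks described in the text are shown first, as the + strand of GRCm38 (RefSeq) with CpGs in capitals, since a CpG is the base pair step that UHRF1 helps to keep methylated. The set holds the WT-only peak with the highest fold, at −176 bp from the TSS of Tsc22d4 (chr5:137745485-137745617), a WT peak inside the imprinted gene Peg3 (chr7:6729746-6729975), Uhrf1hepKO peaks upstream of Nudc (chr4:133546241-133546531) and Hsd17b6 (chr10:128008211-128008337), and a Uhrf1hepKO-only peak upstream of Alb (chr5:90450304-90450469). None of these windows overlaps an annotated exon.
Tsc22d4, WT: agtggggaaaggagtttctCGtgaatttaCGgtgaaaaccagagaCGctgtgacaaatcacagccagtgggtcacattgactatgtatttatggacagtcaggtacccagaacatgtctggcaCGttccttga
Peg3, WT: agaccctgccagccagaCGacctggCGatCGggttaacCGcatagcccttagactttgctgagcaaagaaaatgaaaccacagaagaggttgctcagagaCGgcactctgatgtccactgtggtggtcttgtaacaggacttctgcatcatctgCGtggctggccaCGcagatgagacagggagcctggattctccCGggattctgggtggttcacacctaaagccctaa
Nudc, Uhrf1hepKO: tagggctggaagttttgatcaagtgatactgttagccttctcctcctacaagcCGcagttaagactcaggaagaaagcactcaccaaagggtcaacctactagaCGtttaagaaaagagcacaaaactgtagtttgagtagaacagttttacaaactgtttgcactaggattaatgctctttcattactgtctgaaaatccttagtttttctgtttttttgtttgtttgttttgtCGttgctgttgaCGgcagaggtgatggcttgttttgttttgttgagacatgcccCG
Hsd17b6, Uhrf1hepKO: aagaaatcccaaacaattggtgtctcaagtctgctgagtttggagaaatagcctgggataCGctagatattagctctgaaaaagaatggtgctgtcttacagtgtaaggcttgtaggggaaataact
Alb, Uhrf1hepKO: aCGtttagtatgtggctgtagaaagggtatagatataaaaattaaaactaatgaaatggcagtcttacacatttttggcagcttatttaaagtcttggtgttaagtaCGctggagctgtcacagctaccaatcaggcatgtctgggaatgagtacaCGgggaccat
The Tsc22d4 window holds 4 CpGs in 133 bases and the Peg3 window 8 in 230. In the Uhrf1hepKO peaks there were 5 CpGs in 291 bases at Nudc, 1 in 127 bases at Hsd17b6 and 3 in 166 bases upstream of Alb. Chromosomes 1 to 19 as a whole hold 0.851 CpGs per 100 bp. Per base, both WT windows shown held more CpGs than the Uhrf1hepKO windows shown, but this order depends on the choice. Other WT windows named below ran from 0 CpGs in 116 bases, at Dda1 and Mc1r, to 7 in 131 bases at Adnp. Other Uhrf1hepKO windows ran from 1 in 117 bases at Eno1 to 3 in 115 bases at Mrm1. The windows were picked as examples, and the classes as a whole are compared further on.

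Most H2A.Z sites were present in both livers. Of the WT peaks, 35471 (70.0%, interval 69.6 to 70.4%) were shared, and of the Uhrf1hepKO peaks, 35126 (75.7%, interval 75.3 to 76.1%). This left 15194 WT-only and 11274 Uhrf1hepKO-only peaks. By length, 68.2% of the base pairs under WT peaks and 71.0% of those under Uhrf1hepKO peaks were covered in both lists. The overlaps included 30495 pairs in which a single peak of each list met. The 2 lists differ in length, and with the same number of peaks from each, taken by the highest −log10 p, the shares were 73.6% and 73.2%.

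Whether a peak was shared followed the reads at its summit. Among WT peaks with known reads, 31.5% of the peaks with under 15 reads were shared, 51.7% of those with 15 to 19 reads, 76.2% of those with 20 to 24 reads and 93.4% of those with 25 to 29 reads. Above this nearly every peak was found in both livers, with 99.1% of the peaks with 30 to 39 reads and 2354 of the 2355 peaks with 40 or more. The Uhrf1hepKO list ran from 33.4% under 15 reads to 98.9% at 30 to 39 reads, and all 3316 of its peaks with 40 or more reads on the fold steps were shared. A Uhrf1hepKO-only peak off the steps, upstream of Alb, is described at the end. The only WT peak with 40 or more reads and no partner was the one upstream of Tsc22d4. A peak found in 1 list is thus, in most cases, a site with few reads. The lists do not give the reads at such a site in the other liver, so loss and missed detection cannot be told apart. Median reads were 17 in WT-only and 18 in Uhrf1hepKO-only peaks, against 23 and 25 in the shared peaks of the same lists.

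**Figure D1:**
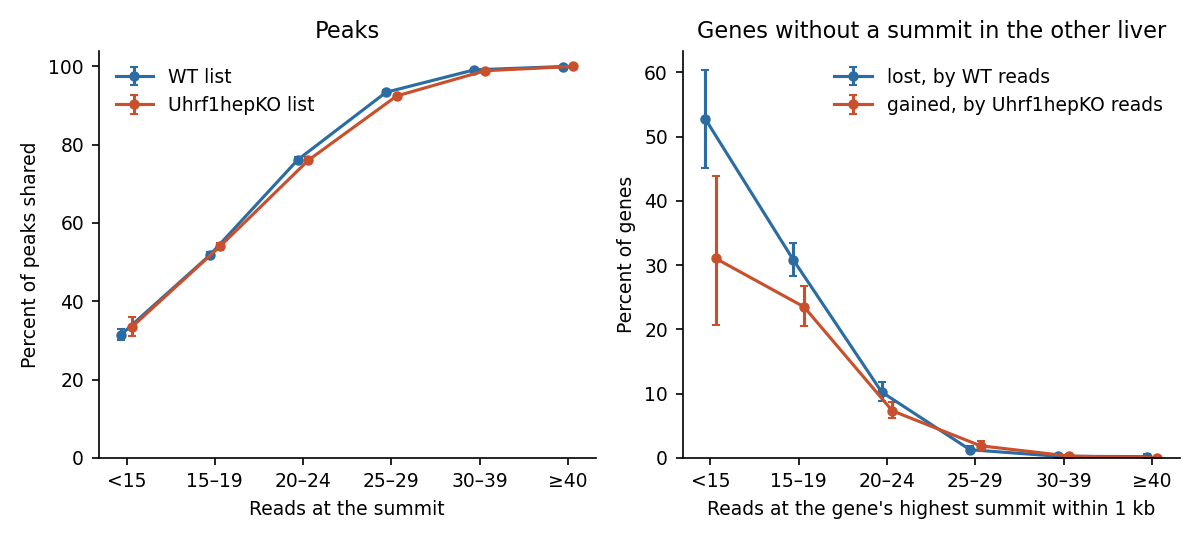
Percent of H2A.Z peaks shared between the livers (left, y axis) by the reads at the summit (x axis), and percent of genes whose summits within 1 kb of the TSS had no counterpart in the other liver (right, y axis) by the reads at the gene's highest summit. Points are 1 library each, WT in blue and Uhrf1hepKO in orange, with Wilson 95% intervals for counting error. The shared percent rises from 31.5% of WT peaks under 15 reads to 99.1% at 30 to 39 reads, and lost genes fall from 52.8% to 0.245% over the same classes.

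Pairs of shared peaks had nearly the same height in both livers. The log2 ratio of the Uhrf1hepKO to the WT fold had a median of 0.02 over the 30495 pairs. Over the 27926 pairs with known reads it had an SD of 0.28, less than the 0.42 that independent counting of these reads would give alone. The SD was also the smaller in the 2000 pairs with 40 or more WT reads, at 0.21 against 0.31. The cause was not tested, nor was it tested whether the reads of the 2 libraries are independent, as the counting intervals given here take them to be. Relative to the median, 25 pairs (0.082%) rose by 2-fold or more and 19 (0.0623%) fell by 2-fold or more. A pair needs a called peak in both livers, so a site that fell below calling in 1 liver is not counted here. The SD and these counts thus describe called pairs alone. Among the 7839 pairs with under 20 WT reads the median log2 ratio was 0.15. It was −0.01 at 20 to 29, −0.07 at 30 to 39 and −0.04 at 40 or more WT reads. These classes were set by the WT reads alone, so the values do not describe a gain at weak sites. Among the 8461 pairs within 1 kb of a TSS with at least 20 reads in both livers, rises were found at Snrpf, a core protein of the spliceosome, and Apobec1, the cytidine deaminase that edits apolipoprotein B mRNA, both with 20 and 39 reads. The largest fall was at Rheb, the GTPase that activates mTORC1, with 45 WT and 24 Uhrf1hepKO reads. At Stard5, a sterol-binding protein, reads were 41 and 24, and at Ripk1, a kinase of cell death signalling, 34 and 20. Along the gene, the summit at Apobec1 lay at −481 bp from the TSS in WT and at −336 bp in Uhrf1hepKO. At Stard5 it lay at −260 bp in WT and at −427 bp in Uhrf1hepKO. The reads of those 2 pairs are thus from different positions. The extremes are the tail of many pairs, and each rests on the reads of 1 library per genotype.

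The classes lay at different distances from genes. A summit within 1 kb of the TSS of a protein-coding gene was found for 38.8% of shared WT peaks (interval 38.3 to 39.3%), 19.6% of WT-only peaks (18.99 to 20.3%) and 16.2% of Uhrf1hepKO-only peaks (15.5 to 16.9%). More than 50 kb from any such TSS lay 23.6%, 34.7% and 39.02%. Seen from the other side, 82.2% of the WT peaks within 1 kb of a TSS were shared and 61.3% of those beyond 50 kb, and 88.2% and 65.3% of the Uhrf1hepKO peaks. The median reads of the WT peaks were 24 within 1 kb and 19 beyond 50 kb. Median distances were 27141 bp for Uhrf1hepKO-only, 21746 bp for WT-only and 6375 bp for shared WT peaks.

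Around the TSS the shared peaks were mostly upstream and the others mostly downstream. Of the shared WT summits within 1 kb, 53.1% lay more than 100 bp upstream and 40.4% more than 100 bp downstream. For WT-only summits these shares were 33.6% and 59.1%, and for Uhrf1hepKO-only summits 34.1% and 59.9%. WT-only and Uhrf1hepKO-only peaks thus had similar profiles. Upstream WT peaks also had more reads, with a median of 26 against 21 downstream. Among WT peaks of 15 to 19 reads, 64.4% of the upstream (interval 62.0 to 66.8%) and 57.5% of the downstream peaks (55.5 to 59.5%) were shared. In Uhrf1hepKO peaks with these reads the shares were 70.6% (67.6 to 73.4%) and 64.8% (62.3 to 67.2%).

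**Figure D2:**
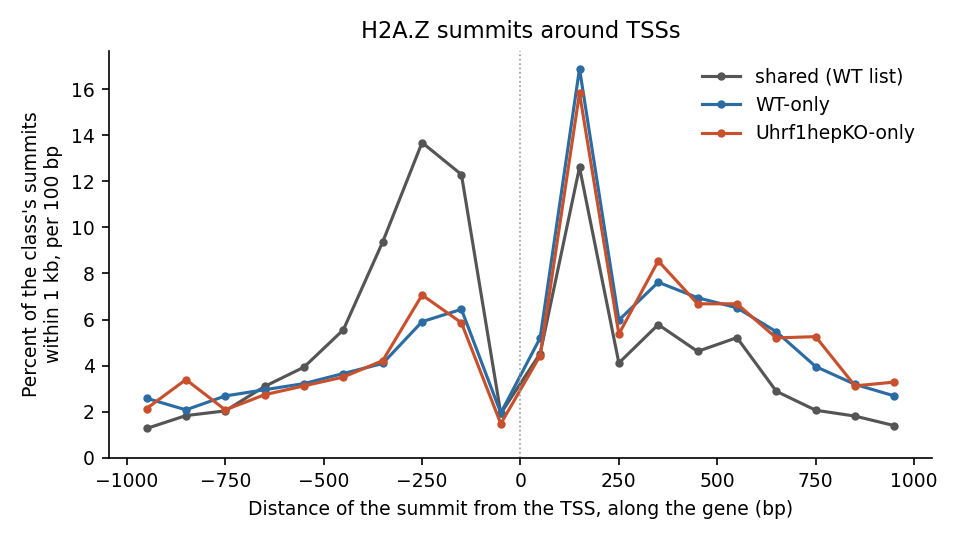
Percent of each class's summits within 1 kb of a TSS (y axis, per 100 bp) by distance from the TSS along the gene (x axis, bp, negative upstream), for shared peaks of the WT list in grey, WT-only peaks in blue and Uhrf1hepKO-only peaks in orange. Upstream of the TSS the shared class is highest, with 53.1% of its summits more than 100 bp upstream against 33.6% and 34.1%, and downstream the other classes lie above it.

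Sequence and accessibility also differed between the classes, in the same way for both genotypes. Within 1 kb of a TSS the 201 bp around the summit held 3.78 CpGs per 100 bp in shared WT peaks, 5.03 in WT-only peaks and 4.76 in Uhrf1hepKO-only peaks. CpGs also differed by side of the TSS, with 3.04 per 100 bp in WT peaks upstream and 4.94 downstream. Side and class were not separated. Beyond 1 kb the shared peaks had the most, with 1.54, 1.23 and 1.19. Repeat-masked sequence covered the summit of 11.8% of shared WT, 15% of WT-only and 16.6% of Uhrf1hepKO-only peaks, while 33.5% of chromosomes 1 to 19 is masked. Each list was set against the ATACseq peaks of its own genotype. A WT ATACseq peak overlapped 11.1% of shared WT peaks (interval 10.8 to 11.4%) and 3.297% of WT-only peaks (3.03 to 3.59%). For Uhrf1hepKO these shares were 8.93% of shared (8.63 to 9.23%) and 2.36% of Uhrf1hepKO-only peaks (2.10 to 2.66%).

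Shared peaks were wider. Overlap by 1 bp is easier for a wide peak to meet, and width also rose with reads. The WT peaks upstream of a TSS, for example, had a median width of 134 bp at 15 to 19 reads and 291 bp at 25 to 29 reads. Class, overlap rule and reads were not separated for width. The median width of shared peaks was 205 bp in either list (interval 201 to 208 bp in WT and 202 to 208 bp in Uhrf1hepKO), against 116 bp (115 to 117 bp) for WT-only and 122 bp (121 to 123 bp) for Uhrf1hepKO-only peaks. The shortest peak a list can hold differs by 6 bp between the lists, and WT-only and Uhrf1hepKO-only peaks were both 21 bp above it at the median. Over the pairs, the width of the Uhrf1hepKO peak minus that of the WT peak had a median of 1 bp. The widest peak of all was a shared Uhrf1hepKO peak of 3017 bp, while the widest WT-only peak was 809 bp.

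Summits lay close to each other at most shared sites. Those of the 30495 pairs differed by a median of 16 bp, and by 15 bp within 1 kb of a TSS. Shifts had no common direction, with a signed median of 0 bp and 49.6% of the moved summits downstream in Uhrf1hepKO (interval 49.0 to 50.2%). In the 583 pairs of narrow peaks (up to 150 bp) with 30 or more reads in both livers the median shift was 7 bp and none exceeded 73 bp, a distance shorter than the DNA wrapped on a nucleosome. A shift over 73 bp was found in 15.5% of all pairs, in 1.498% of the narrow pairs and in 27.4% of the pairs with a peak over 300 bp. The histogram had a small shoulder on each side, with 195 pairs between −165 and −155 bp and 187 between 155 and 165 bp, against 99 between −105 and −95 bp.

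**Figure D3:**
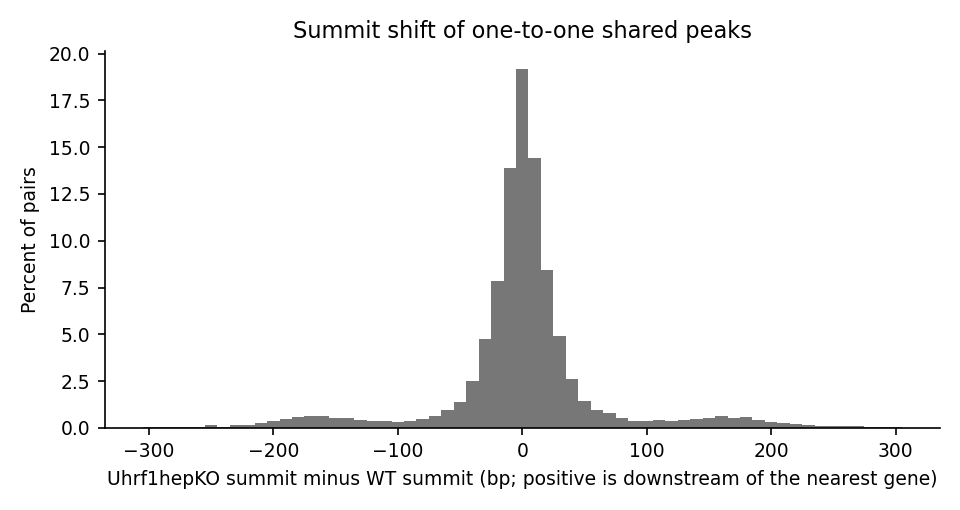
Summit of the Uhrf1hepKO peak minus that of its WT partner (x axis, bp) for the 30495 pairs, as percent of pairs per 10 bp (y axis). Positive values lie at the higher chromosome coordinate. The word downstream in the axis label therefore holds for genes on the + strand only. The distribution is centred on 0 with a median absolute shift of 16 bp and has a low shoulder on each side, with 195 pairs between −165 and −155 bp and 187 between 155 and 165 bp.

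At genes, loss of every peak was more frequent than gain. Of 20807 protein-coding genes, 9780 had a WT and 9450 a Uhrf1hepKO summit within 1 kb of the TSS, and 9084 had both. Every summit was lost in Uhrf1hepKO at 696 genes, 3.35% of all genes or 7.12% of those with a WT summit (interval 6.62 to 7.64%). Summits were gained at 366 genes, 1.76% of all or 3.87% of those with a Uhrf1hepKO summit (3.502 to 4.28%). No peak of the other list reached into the window at 662 (3.18%) and 346 (1.66%) of them. With equal numbers of peaks in both lists there were 617 lost and 428 gained genes, so the excess of losses was smaller with lists of the same length. More genes had fewer summits in Uhrf1hepKO (3132) than more (1934), and 5080 had the same number above 0.

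Lost and gained genes had few reads at their summits. The highest summit of a lost gene had a median of 18 reads, against 30 WT reads at genes with summits in both livers, and 84.6% of the lost and 90.4% of the gained genes had a single summit. Of genes whose highest WT summit had under 15 reads, 52.8% were lost, and of those with 15 to 19 reads, 30.8%. The share was 1.26% at 25 to 29 reads, and 3 of 1674 genes (0.179%) with 40 or more reads were lost. Of the 3, a Uhrf1hepKO peak still reached into the window at Cep350 and 4930430F08Rik, with 40 WT reads each, but not at Tsc22d4. None of the 2211 genes with 40 or more Uhrf1hepKO reads was gained, which allows a share of up to 0.173% by the Wilson interval. ATACseq calls were also counted at these genes. Of the 696 lost genes, 122 had an ATACseq peak in both livers, 46 in WT alone, 52 in Uhrf1hepKO alone and 476 in neither. At the 366 gained genes, 18 had one in WT alone and 18 in Uhrf1hepKO alone, and at the 9084 genes with H2A.Z in both livers, 1121 and 642.

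Tsc22d4, a regulator of transcription of the TSC22 domain family, had the highest fold among lost genes with no Uhrf1hepKO peak over the window. Its WT peaks had 43 reads (fold 10.7) at −176 bp and 21 reads (fold 5.36) at 406 bp from the TSS, and the nearest Uhrf1hepKO peak was more than 4 kb away, at a gap of 4069 bp from the upstream peak. The sequence under the upstream peak is the first of those shown above. The next lost genes each had 1 summit. They were Coprs, a cofactor of the arginine methyltransferase PRMT5, with 30 reads, Tmem44 with 28, Dda1, a subunit of a ubiquitin ligase, and Rhod with 27 each, and Adnp, a chromatin protein, Dusp3, a phosphatase, and Mc1r, the melanocortin receptor, with 26 each. In the Uhrf1hepKO liver these genes had no peak in the window.

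Among gained genes with no WT peak over the window, the highest fold was at Nudc, a dynein-associated chaperone, with 34 reads at −314 bp from the TSS. Asgr1 had 2 Uhrf1hepKO peaks, with 31 reads at 83 bp and 19 reads at −923 bp from the TSS, and none in WT. It encodes the major subunit of the asialoglycoprotein receptor of hepatocytes. Its neighbour Asgr2, the gene of the other subunit, was among the losses, with 22 WT reads at −235 bp and no Uhrf1hepKO peak in the window, though one lay at a gap of 793 bp from the WT peak. Hsd17b6, a hydroxysteroid dehydrogenase, and Lpin3, a lipin phosphatase, had 30 reads each, and Mrm1, a mitochondrial rRNA methyltransferase, had 29. Cadm2, Eno1, the glycolytic enzyme enolase, and Sesn2, a stress-responsive sestrin, had 28 each.

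**Figure D4:**
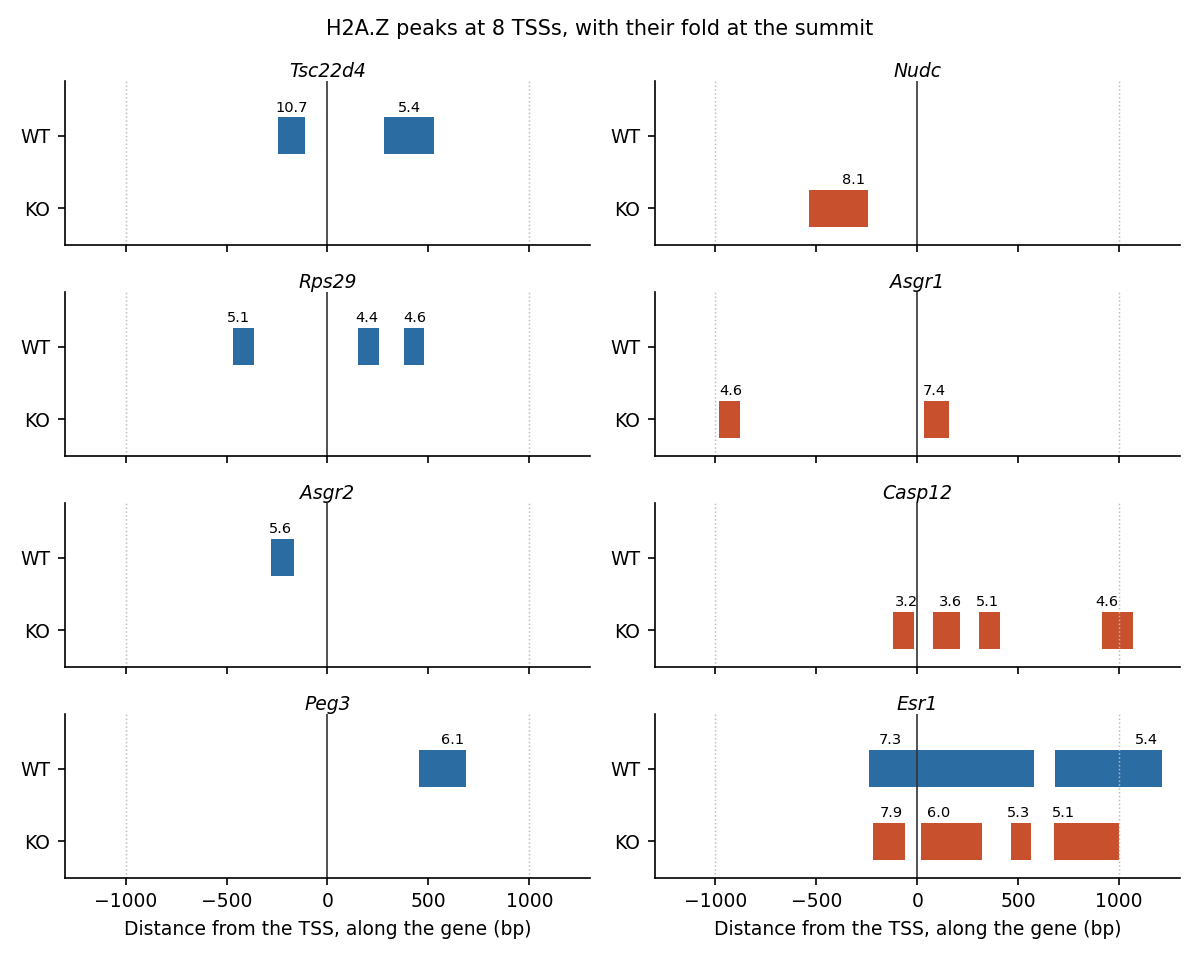
H2A.Z peaks at the TSS of 8 genes, drawn to scale along the gene (x axis, bp from the TSS; dotted lines at 1000 bp), with WT peaks in blue above and Uhrf1hepKO (KO) peaks in orange below, and the fold at the summit over each. On the left are genes that had summits in WT alone, such as Tsc22d4 with folds of 10.7 and 5.36, and on the right genes with more summits in Uhrf1hepKO, including Esr1, where the same stretch is covered in both livers. At Peg3 and Asgr2 a Uhrf1hepKO peak just beyond the dotted lines is not drawn.

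The genes with the largest changes in number of summits differed in whether peaks were split or absent. Casp12, an inflammatory caspase, had 0 WT and 4 Uhrf1hepKO summits, from −54 to 939 bp from the TSS. Their folds were 3.20, 3.62, 5.11 and 4.65, and the gap from the nearest of them to a WT peak was 2397 bp. Esr1, the estrogen receptor, went from 1 to 4 summits, but all 4 Uhrf1hepKO peaks overlapped WT peaks, one of them 818 bp wide. At Atg4c, an autophagy protease, summits went from 2 to 5, with 45 and 49 reads at the highest. Alg1, a mannosyltransferase of glycan synthesis, went from 5 to 1, with 41 and 43 reads at the highest summit. Of its 5 WT peaks, 3 overlapped no Uhrf1hepKO peak, at gaps of 139, 263 and 458 bp. At Maip1, an interactor of mitochondrial AAA proteases, 4 of the 5 WT peaks overlapped no Uhrf1hepKO peak, and the single Uhrf1hepKO peak was 107 bp wide. At Rps29, of the small ribosomal subunit, all 3 WT summits, with 17, 18 and 20 reads, were absent in Uhrf1hepKO. H2afz, which encodes H2A.Z.1, had 2 WT summits with 22 reads each and 1 Uhrf1hepKO summit with 28 reads, upstream of the TSS, where the peaks overlapped. H2afv, the gene of H2A.Z.2, had 2 summits in either liver, with 45 and 36 reads at the highest. Uhrf1 itself kept its summit upstream of the TSS, at −211 bp with 26 reads in WT and −216 bp with 25 in Uhrf1hepKO.

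Liver enriched genes were set beside the other gene lists, by counts and against all genes with a summit. In the list of liver enriched genes of the study, 84 of 256 measured genes had a WT summit, and 18 of the 84 lost it (21.4%, interval 14.01 to 31.3%, against 7.12% of all genes). Of 82 with a Uhrf1hepKO summit, 16 had gained it (19.5%, interval 12.4 to 29.4%, against 3.87%). The losses included Itih2, a serum protein of the hyaluronan matrix, with 25 reads, Ttc36 with 24 and Cpn2, a subunit of carboxypeptidase N, with 21. Gains were found at Cyp3a59, a cytochrome P450, with 26 reads, at Angptl8, a regulator of triglyceride clearance, and Mbl2, mannose-binding lectin, with 23 each, and at F2, prothrombin, with 22. The highest summits of these genes were low, with a median of 21 WT reads. If each of the 81 genes with known WT reads were lost at the rate of all genes in its class of reads, 13.1 would be lost, and 18 were. Gains counted the same way would be 5.92 of 79, and 15 were found.

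The study's cell proliferation genes, which act in DNA replication and division among other steps, were counted in the same way. The paper took them from genes silent in quiescent liver that lay in chromatin states called partly from H2A.Z in WT liver. The list was thus not chosen independently of WT H2A.Z, and its counts of summits, losses and gains carry this choice. Of 567 measured genes, 438 had a WT summit and 17 lost it (3.88%, interval 2.44 to 6.13%, against 7.12% of all genes), and 10 of 431 gained one (2.32%, 1.27 to 4.22%, against 3.87%). The median of their highest WT summits was 32 reads, and at the rates of all genes with the same reads 19.2 of 429 would be lost, against 16 found, and 11.8 of 425 gained, against 10 found. The counts were thus near those of all genes with the same reads. Lig1 (DNA ligase I), Cenpt (a kinetochore protein) and Dyrk3 (a kinase) had 33 WT, 30 WT and 36 Uhrf1hepKO reads at the summit counted as lost or gained. In each the peaks of both livers overlapped and the summit crossed the 1 kb line, so these are shifts within a shared peak. In a shorter list of cell cycle genes, 2 of 26 (7.69%) lost their summit, where 2.57 of 25 with known reads would be lost at the rates of all genes. They were Ccne2 (cyclin E2) with 17 reads and Cdc20, an activator of the anaphase-promoting complex, with 15. None of 24 gained one.

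Among imprinted genes, 3 of the 8 with a WT summit lost it (37.5%, interval 13.7 to 69.4%) and none of the 5 with a Uhrf1hepKO summit had gained one. They were Peg3, a zinc finger protein expressed from the paternal allele, with 24 reads at 621 bp from the TSS, its neighbour Zim1 with 16 reads, and Phlda2 with 15. At Peg3 a Uhrf1hepKO peak lay outside the window, 331 bp from the edge of the WT peak. At the rates of all genes with these reads, 0.861 of 8 would be lost. The other 5 imprinted genes kept a summit in both livers, and the list is short.

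**Figure D5:**
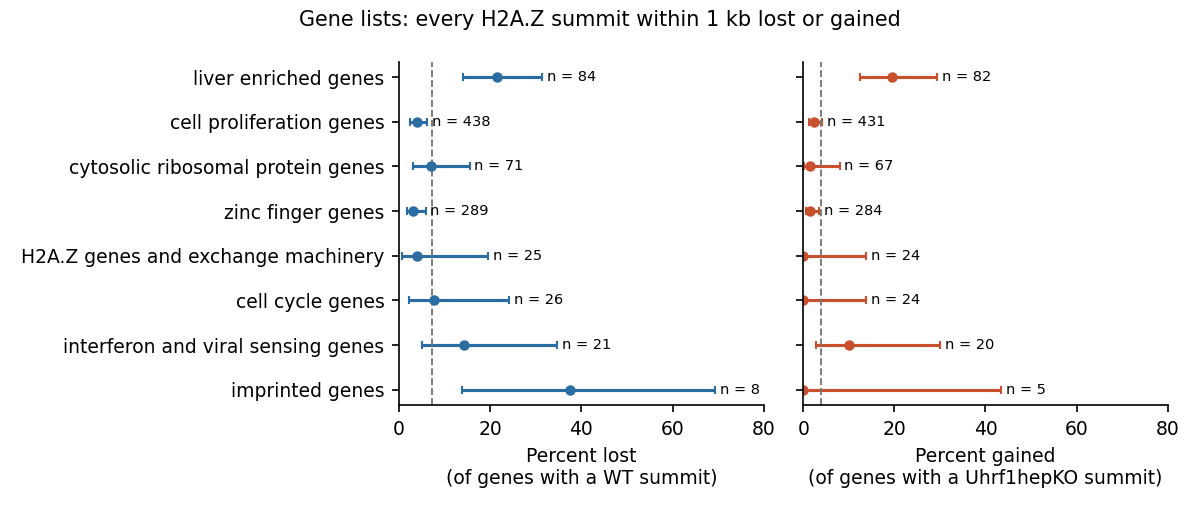
Percent of the genes of 8 lists that lost (left) or gained (right) every H2A.Z summit within 1 kb of the TSS (x axis, percent of the list's genes with a summit in the WT or the Uhrf1hepKO liver, n beside each point), with Wilson 95% intervals for counting error. The dashed line marks all protein-coding genes with such a summit (7.12% lost, 3.87% gained), and the liver enriched genes lie to the right of it on both sides, at 21.4% and 19.5%. The line does not take account of the reads at the summits of each list.

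The remaining lists are given by their counts. Of all genes with a summit, 7.12% lost and 3.87% gained theirs. These shares fall as the reads at the summit rise, so they are no fair measure for a list with high or low summits. For the H2A.Z genes and the complexes that exchange H2A.Z, 24 of 25 kept a summit, and the exception was Ep400, the ATPase of the p400 complex, with 25 WT reads. Of the cytosolic ribosomal protein genes, 5 of 71 lost and 1 of 67 gained their summits, and of the zinc finger genes, 9 of 289 lost and 4 of 284 gained them. Among interferon and viral sensing genes, Dhx58, Rsad2 and Stat2 were lost, with 23, 15 and 11 reads, of 21 with a WT summit (14.3%, interval 4.98 to 34.6%). In the same list Zbp1, a sensor of Z-form nucleic acids, and Oasl2 were gained, with 23 and 20 reads, of 20 with a Uhrf1hepKO summit (10%, interval 2.79 to 30.1%). By reads, 1.74 of the 21 would be lost and 0.658 of the 20 gained. DNA methylation genes had 1 loss and 1 gain of 12 in either liver. The loss was at Mbd3, a subunit of the NuRD complex, with 18 reads, and the gain at Zfp57, which protects imprints, with 14. No PRC2 or heterochromatin gene of 11 lost its summits, and Jarid2, a PRC2 cofactor, gained one with 14 reads. Hepatocyte transcription factors had 1 loss of 7, Tbx3 with 15 reads, and 1 gain of 7, Onecut1 with 21. Of the hepatocyte products, none of 2 with a WT summit lost it and 2 of 4 gained theirs, F2 with 22 reads and Cyp8b1, a bile acid hydroxylase, with a fold of 3.20. Germline genes had summits at 2 of 23 in both livers, and of 39 Hox genes 1 had a summit in both.

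Most sites found in 1 liver lay over 1 kb from any peak of the other list, 57.8% of the WT-only and 59.4% of the Uhrf1hepKO-only peaks, TSSs included. The gap to the nearest peak of the other list was up to 150 bp for 13.6% of WT-only and 13.8% of Uhrf1hepKO-only peaks, and over 10 kb for 33.5% and 33.8%. Of the highest folds among the Uhrf1hepKO-only peaks, the one in an intron of Slc25a26 (fold 8.60) was 135 bp from a WT peak, while the one at −4758 bp from the TSS of Map2k3 (fold 9.06) was 4353 bp from any. Among WT-only peaks the second highest fold, 9.51, lay at −116185 bp from the TSS of Olig3, and the third, 9.02, at −14920 bp from that of Acsbg1, where both livers had an ATACseq peak. Runs of neighbouring peaks that all came from the same liver reached 11 peaks in WT and 9 in Uhrf1hepKO, but 7884 of 10905 WT and 6710 of 8631 Uhrf1hepKO runs were of a single peak.

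The region upstream of Alb stood out. The Uhrf1hepKO-only peak at −10500 bp had a fold of 9.04, which with its p-value gives 53 reads over a local background of 4.98 reads per base, against 3.303 elsewhere. A second Uhrf1hepKO-only peak lay at −11035 bp, with 27 reads over a local background of 6.77. The Uhrf1hepKO liver also had ATACseq peaks centred at −10813 bp and −114 bp, with folds of 3.81 and 4.18, and the WT liver had no peak of either assay at these places. Within 30 kb of the TSS there were also shared H2A.Z peaks, of 30 WT and 35 Uhrf1hepKO reads at the upstream end, and a WT-only peak at 25089 bp with 15 reads. The Uhrf1hepKO mouse carries albumin regulatory sequence in its Cre transgene, and signal from the transgene and from the Alb locus cannot be told apart here.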

How the data were processed

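H2A.Z was measured by ChIPseq after micrococcal nuclease digestion in 1 WT and 1 Uhrf1hepKO liver. Per the labels, FastQC 0.11.5, Trimmomatic, BWA and Picard were used with GRCm38.p4. The authors aligned reads with BWA-MEM, removed duplicates and ran MACS2 on each library. Their methods give a p-value of 0.05, while both lists end near a q-value of 0.05 (0.04996 at most in WT and 0.0489 in Uhrf1hepKO). The MACS2 version, the calling mode and a control are not given in the sources used here. Each deposited peak has a score for display, a fold (a ratio of reads at the summit to background) and a −log10 p and q. The summit is another deposited value. Nothing was scaled between libraries.

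Peaks were classed by overlaps of 1 bp on chromosomes 1 to 19. Summit distances (1-based, GRCm38) were taken to the 5′ ends of 20807 protein-coding genes of GENCODE vM21, along the gene. A gene was lost or gained when summits of only 1 list lay within 1000 bp. Reads at the summit were taken where the fold lay within 0.01 reads of a whole number, and off the steps were solved from fold and Poisson p, which returned the step value for 182 of 182 peaks tried. Depth is known only through the lists, and intervals (Wilson 95%, and order statistics for medians) cover counting error only. No test was possible with 1 library per genotype. The ATACseq lists were used for overlaps.

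The genes named were, in each direction, the 8 lost or gained genes of highest fold with no other peak in the window, up to 6 lost or gained members per gene list by highest fold, Uhrf1, H2afz and H2afv, the 5 genes with the largest change in summits, the genes nearest the 3 WT-only and 3 Uhrf1hepKO-only peaks of highest fold, and the 5 largest rises and falls of paired peaks at TSSs. Not all are printed, and a rise at a further gene is not reported here. The lists of liver enriched and cell proliferation genes are those of the study. The members and lists were chosen with earlier results of these data known. Unmatched list members were left out. Overlap rule, fold filter, list length, chromosomes, TSS set, peak position and window were varied 1 at a time. The lookup of nearby peaks at Alb and the rates by class of reads were added after the peaks were seen. The steps were tested on simulated data. Calculations used scipy 1.17.1, pandas 2.3.3 and numpy 2.4.6 under Python 3.11.15, with figures from matplotlib 3.10.9.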

Additional observations from a re-analysis of the deposited data

Results flagged for a closer look

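Outside the comparison, the WT list held 1037 and the Uhrf1hepKO list 991 H2A.Z peaks away from chromosomes 1 to 19. Of these, 785 and 735 lay on X and Y, and 252 and 256 on other sequences of the assembly. They were singled out because they are signal in data that the comparison does not use.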

How the results depend on the processing

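Shared peaks were at TSSs more often than the other classes, wider than them, and more genes were lost than gained, under each alternative run for that result (the overlap rules were not run for gene counts, nor the TSS set, peak position and window for widths). Of 67 alternative values, 31 stayed within the counting interval (for gene counts, within 1.5 times) and 36 moved. The cause was not tested beyond each alternative's construction. The Uhrf1hepKO list was the more shared in all but the comparison of equal numbers of peaks. Values are given in the order WT and Uhrf1hepKO shares, then the percent within the TSS window for shared WT, WT-only and Uhrf1hepKO-only peaks, then the median widths in the same order. With at least 50% of both peaks overlapping, the shares fell to 53.7% and 58.6%, the TSS percents were 39.98%, 24.95% and 23.8%, the widths of WT-only and Uhrf1hepKO-only peaks were 128 and 138 bp and the median summit shift was 15 bp. With a gap of up to 150 bp allowed, the shares were 74.1% and 79.1%, WT-only and Uhrf1hepKO-only peaks at TSSs were 17.2% and 13.8%, and shared peaks were 193 bp wide. With peaks at or above the median fold, the shares were 72.7% and 80.4%, the TSS percents 47.3%, 28.6% and 26.5%, the widths 276, 138 and 142 bp and the shift 13 bp. With equal numbers of peaks, the shares were 73.6% and 73.2%, shared and WT-only peaks at TSSs were 39.5% and 21.2%, and the widths were 211, 114 and 125 bp. With every transcript start, the TSS percents were 44.7%, 24.5% and 20.3%, with any base of the peak 39.7% of shared peaks, and with a 5 kb window 48.1%, 31.2% and 27.6%. Lost genes ranged from 503 to 826 and gained genes from 247 to 466. The lowest counts are those with no peak of the other list within 5 kb, an alternative added after the data were seen. No paired analysis was possible because each genotype has 1 library, and for the same reason no replicate could be left out. Depth limits the peaks with under 25 reads, where absence from a list cannot be told from too few reads.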
